A study of Rattus norvegicus with 4 samples.

Results

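Read counts of 7 genes of the rat hippocampus are described, 4 listed under symbols of cytosolic ribosomal proteins (Rpl22, Rpl5, Rps27 and Rps4x, the last at a locus now annotated as a pseudogene) and 3 that encode subunits of the respiratory chain (Cox7a2, Cox7b and Ndufb11). They come from a table of 540 gene symbols, and they hold 11 of its 830 transcripts. They are not all genes of these kinds there, since Rps18 and Ndufa10, both with lower means in fluoxetine, are not among them. The table was itself selected on the difference between fluoxetine and vehicle in the same samples, and the 7 genes were picked with values of these samples known. Their levels and ratios are therefore given as a description, without a test. Each sample was the pooled hippocampal tissue, punched from frozen brain slices, of 2 male Wistar rats, and each group had 2 samples. The fluoxetine group received fluoxetine, a blocker of serotonin reuptake, at 12 mg/kg each day by gavage, starting on postnatal day (PND) 67 and ending on PND 88. The vehicle group received 1% methylcellulose over the same days, and the rats of both groups were killed 40 days after dosing ended, at PND 128.

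Ribosomal proteins and ribosomal RNA together form the 2 subunits of the ribosome, and most mammalian ribosomal protein mRNAs are short, abundant and share a pyrimidine-rich start at which their translation is controlled. Complex I (NADH dehydrogenase) takes electrons from NADH and complex IV (cytochrome c oxidase) hands them to oxygen at the end of the mitochondrial respiratory chain, and neurons depend on this chain for most of their ATP. Genes of both kinds are expressed in every cell type of the brain, so none of the 7 marks a cell type.

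Summed over the 830 transcripts, the counts of the 4 samples came to between 138314 and 162734. These sums are 1.03 to 1.17% of the library sizes used for NE, the normalized expression value deposited beside each count. Reads shared by listed models of a gene enter the sums more than once, so the sums overstate the share of the library. Levels of a gene across samples are given as normalized reads, which are counts divided by a TMM factor from the 830 transcripts (0.933 to 1.12). Levels between genes are compared only as NE, which is also divided by transcript length. Where a gene has more than 1 listed transcript, the one with the most reads stands for it.

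Cox7b (gene ID 303393) encodes a small subunit of complex IV and had the most reads of the 7 genes. Its transcript of 448 bases and 3 exons lies at chrX:94138056-94144305 on the plus strand of rn4, the build of the deposited coordinates. It had 1253 normalized reads in fluoxetine sample 1, 191 in fluoxetine sample 2, 504 in vehicle sample 1 and 172 in vehicle sample 2. Fluoxetine sample 1 stood above all other samples, and fluoxetine sample 2 fell between both vehicle samples. The mean was 722 ± 751 normalized reads in fluoxetine and 338 ± 235 in vehicle (SD, n = 2 samples per group), with a log2 fold change of 1.10 (SE 1.05, edgeR).

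Ndufb11 (gene ID 299310) encodes an accessory subunit of complex I and followed the same order of samples. Its 527-base transcript of 2 exons lies at chrX:12991449-12992159 on the plus strand (rn4). Samples 1 and 2 had 381 and 80.0 normalized reads in fluoxetine, and 167 and 58.2 in vehicle. Sample 1 was the higher sample of each group, and the groups overlapped. The log2 fold change was 1.03 (SE 0.95), from means of 230 ± 213 in fluoxetine and 113 ± 77.0 normalized reads in vehicle (SD, n = 2).

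Cox7a2 (gene ID 29507) encodes another small subunit of complex IV. Its transcript of 479 bases and 4 exons lies at chr8:84813292-84817390 on the minus strand (rn4). Samples 1 and 2 had 175 and 48.0 normalized reads in fluoxetine, against 34.3 and 46.6 in vehicle. Both fluoxetine samples were above both vehicle samples here, but fluoxetine sample 2 exceeded vehicle sample 2 by only 1.03-fold. The log2 fold change was 1.46 (SE 0.76), from means of 112 ± 90.1 and 40.4 ± 8.70 normalized reads (SD, n = 2).

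The locus listed as Rps4x (gene ID 29426), named for a protein of the small ribosomal subunit, is a single exon of 894 bases at chr4:34793683-34794576 on the minus strand (rn4). RefSeq's current annotation of the assembly GRCr8 calls this gene ID Rps4x-ps9, a pseudogene on chromosome 4, and places the intact Rps4x gene, with the identifier of the listed transcript, on chromosome X. The reads are thus those that matched a single-exon copy at 1 position of the genome, and how far they stem from the copy or from the gene was not tested. In fluoxetine the locus had 244 normalized reads in sample 1 and 40.9 in sample 2, and in vehicle it had 75.0 and 33.9. Fluoxetine sample 1 was again the highest, and fluoxetine sample 2 fell between the vehicle samples. The log2 fold change was 1.38 (SE 0.98).

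Rps27 (gene ID 94266), a gene of the small subunit, has a transcript of 343 bases and 4 exons at chr2:182451529-182452634 on the minus strand (rn4), the shortest of those that stand for the 7 genes. Samples 1 and 2 had 96.1 and 17.8 normalized reads in fluoxetine, and 26.8 and 14.8 in vehicle. As for Cox7b, 1 fluoxetine sample was far above the other 3 samples and the other lay within the vehicle range. The log2 fold change was 1.44 (SE 0.93).

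Rpl5 (gene ID 81763) encodes a protein of the large subunit that binds 5S ribosomal RNA. Its listed transcript, 881 bases in 2 exons at chr14:2397636-2399099 on the minus strand (rn4), carries a mouse identifier and had few reads, with 28 in sample 1 and 4 in sample 2 of fluoxetine, and 8 in sample 1 and 1 in sample 2 of vehicle. These were 27.7 and 3.56 normalized reads in fluoxetine and 8.57 and 1.06 in vehicle. With 41 reads in all, the log2 fold change of 1.67 carried the largest error of the 7 (SE 1.33).

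Rpl22 (gene ID 81768), another gene of the large subunit, went the other way between samples. It had 44.6 normalized reads in fluoxetine sample 1 and 201 in fluoxetine sample 2, and 42.9 and 107 in vehicle samples 1 and 2. Sample 2 was the higher one in both groups, and here fluoxetine sample 1 fell within the vehicle range. The log2 fold change was 0.71 (SE 0.90), the smallest of the 7. The transcript shown spans chr5:169557840-169564566 on the plus strand (rn4) with 456 bases and 4 exons. Models of 458 bases and of 270 bases, the last with a zebra finch identifier, had the same counts in every sample (45, 226, 40 and 101), so all 412 reads lay in the part common to the 3 models.

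**Figure D1:**
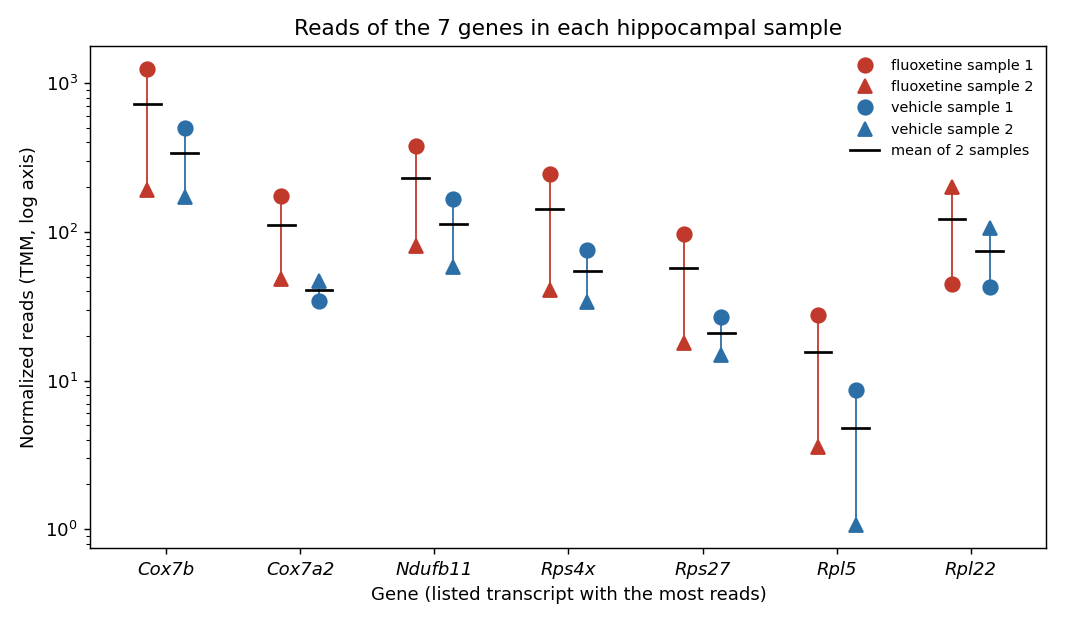
Normalized reads (TMM, log axis) of the 7 genes in each sample, with fluoxetine in red, vehicle in blue, circles for sample 1, triangles for sample 2, thin lines from one sample to the other and black bars for the mean of 2 samples. Fluoxetine sample 1 is the highest of the 4 samples for 6 of 7 genes, and Rpl22 has its highest value, 201, in fluoxetine sample 2.

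On the NE scale, which allows for length, Cox7b was the highest of the 7 at a mean over the 4 samples of 0.849, followed by Ndufb11 at 0.235, Rpl22 at 0.169, Cox7a2 at 0.117, Rps27 at 0.0822, Rps4x at 0.0795 and Rpl5 at 0.00833. Ranges over the 4 samples overlapped between each gene and the next in this order down to Rps4x. Rpl5 stood apart, since its highest NE of 0.0226 was below the lowest of Rps4x, 0.0286. Its only listed transcript is the 2-exon model with a mouse identifier. The order depends on the model that stands for a gene. From the same reads, the 270-base model of Rpl22 had a mean NE of 0.369 in fluoxetine and 0.202 in vehicle. Ndufb11 had 0.322 and 0.147.

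All 7 genes had a higher mean in fluoxetine than in vehicle, while 289 of the 540 genes had a log2 fold change above 0. A difference of some size was given by the choice of the table. The 7 were picked with values known, so their shared direction is no finding. Their log2 fold changes ran from 0.71 to 1.67, with a median of 1.38. The median was 1.21 over the 289 genes of the table with a log2 fold change above 0. It was 0.49 over the 830 transcripts, which include those lower in fluoxetine. After Benjamini-Hochberg adjustment of the quasi-likelihood p-values from edgeR, 0 of 830 (0%) passed 0.05, and so none of the 11 transcripts of these genes. Before adjustment, edgeR put 49 transcripts higher and 147 lower in fluoxetine at p under 0.05, and DESeq2 put 0 and 10 there. This balance moved with the scaling, since edgeR put 60 higher and 74 lower at library totals and 49 higher and 93 lower at DESeq2's size factors. Groups that did not overlap, with both fluoxetine samples higher, were found for 32% of the 540 genes. The share was 59.9% of the 289 genes with a log2 fold change above 0. Among the 7 genes, 1 (Cox7a2) had such groups. For 5 of the other 6, fluoxetine sample 2 lay between the vehicle samples, and for Rpl22 fluoxetine sample 1 did.

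The direction of the group difference rested on single libraries. Without fluoxetine sample 1, the log2 fold change was below 0 for 5 of the 7 genes (Cox7b -0.82, Ndufb11 -0.49, Rpl5 -0.42, Rps4x -0.41 and Rps27 -0.22), and it was 0.25 for Cox7a2 and 1.42 for Rpl22. The median of the 7 genes was then -0.41. That of the 830 transcripts, higher and lower ones together and rescaled without this sample, was -0.55. Without fluoxetine sample 2, Rpl22 was at -0.88 and the other 6 genes kept a higher mean in fluoxetine, with a median of the 7 genes of 1.98 against -0.38 over the 830 transcripts. Leaving out a vehicle sample changed no direction, with medians of the 7 genes of 1.98 against 0.31 over the 830 transcripts without vehicle sample 1, and of 0.86 against 0.23 without vehicle sample 2. In pooled tissue, fewer cells of a type and less RNA per cell cannot be told apart. Technical and animal spread between the samples of a group cannot be told apart either, since each sample pooled different rats.

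In the fluoxetine group, the samples differed from each other by a larger ratio than the group means did for each of the 7 genes. Each ratio below compares 1 sample with 1 sample, so it has no replicate check, and its 95% exact binomial interval covers counting error only, since reads were not marked as separate molecules. In fluoxetine, Cox7b was 6.55-fold higher in sample 1 than in sample 2 (5.67 to 7.61), and Ndufb11 was 4.76-fold higher (3.77 to 6.05). Cox7a2 was 3.65-fold higher in sample 1 (2.68 to 5.05). All 3 respiratory chain genes thus had a sample ratio above their ratio of group means, which was 2.14 for Cox7b, 2.04 for Ndufb11 and 2.76 for Cox7a2.

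Of those listed under ribosomal protein symbols, the Rps4x locus was 5.96-fold higher in fluoxetine sample 1 than in sample 2 (4.34 to 8.36), and Rps27 was 5.41-fold higher (3.32 to 9.24). Rpl5 was 7.80-fold higher in sample 1, with a wide interval from few reads (2.73 to 30.6). Rpl22 was the opposite, 4.51-fold higher in sample 2 than in sample 1 (3.26 to 6.35). No interval of these 7 ratios included 1.

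In vehicle, 5 of the 6 genes that were higher in fluoxetine sample 1 were also higher in sample 1, and 4 of these by a smaller ratio than in fluoxetine. Cox7b was 2.94-fold higher (2.45 to 3.53), Ndufb11 2.87-fold (2.10 to 3.98) and Rps4x 2.21-fold (1.44 to 3.48). Rps27 was 1.81-fold higher with an interval that included 1 (0.904 to 3.76), and Rpl5 was at 8 reads against 1, a ratio of 8.09 (1.09 to 359). Rpl22 was again higher in sample 2, by 2.50-fold (1.71 to 3.69). Cox7a2 alone changed side, at 1.36-fold higher in sample 2 with an interval that included 1 (0.842 to 2.21).

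Among the 7 genes, 6 were at least 2-fold higher in fluoxetine sample 1 than in sample 2, against 23.7% of the 540 genes. In vehicle, 4 of 7 were at least 2-fold higher in sample 1, against 21.3%, and 4 of 7 were so in both groups, against 8.33%. The 4 were Cox7b, Ndufb11, Rps4x and Rpl5. The shares were higher among the 38 other genes under 600 bases at 50 or more normalized reads. Of these, 44.7% were at least 2-fold higher in sample 1 in fluoxetine, 26.3% in vehicle, and 7 of the 38 in both groups. With 0.5 added to the normalized reads, the median log2 ratio of sample 2 over sample 1 was -2.40 in fluoxetine and -1.13 in vehicle for the 7 genes, against -0.05 and -0.01 over all 540. The sample numbers mark the samples of a group and have no order, and the difference between the groups in these ratios was not tested.

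**Figure D2:**
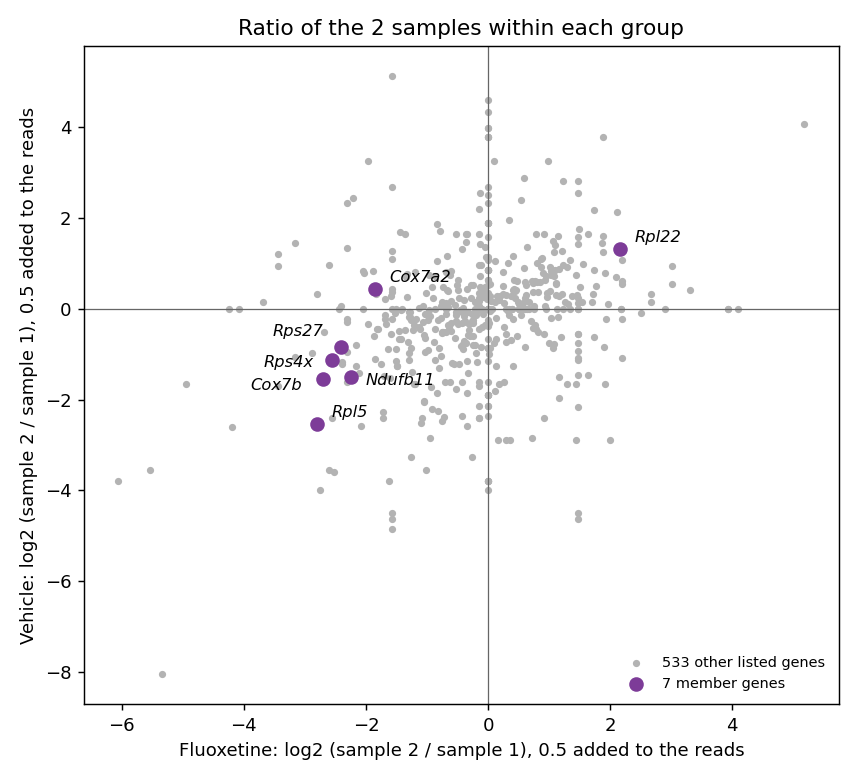
Log2 ratio of sample 2 over sample 1 in fluoxetine (x axis) and in vehicle (y axis), after adding 0.5 to the normalized reads, for the 7 genes (purple) and the 533 other listed genes (grey). Of the 7 genes, 5 lie at the lower left, higher in sample 1 of both groups, Rpl22 lies at the upper right, and Cox7a2 is below 0 in fluoxetine and above 0 in vehicle.

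Cox7b and Rps4x had listed models with different counts, so that parts of the transcript could be set side by side. The 448-base model of Cox7b starts farther 5′ than a 2-exon model of 551 bases with a mouse identifier at chrX:94141576-94144305, and both end at the same base. The 551-base model had 1240 and 191 reads in samples 1 and 2 of fluoxetine, and 458 and 150 in those of vehicle. The 448-base model exceeded it by a net 24 reads in each fluoxetine sample and a net 12 reads in each vehicle sample. This net excess was the same in both samples of a group, while the reads counted in the 551-base model made up the whole difference between the samples before normalization. The models differ in length and in exon number, so this net value does not give the reads of any single exon. As a share of the reads of the 448-base model, it was 1.90% in sample 1 and 11.2% in sample 2 of fluoxetine, and 2.55 and 7.41% in those of vehicle.

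The Rps4x locus has a shorter model of 792 bases that lacks the last 102 bases of the longer one at the 3′ end, chr4:34793683-34793784. These 102 bases are 11.4% of the longer model. They held 72 of 246 reads in fluoxetine sample 1, a share of 29.3% (exact 95% binomial interval 23.7 to 35.4%). They held 7 of 46 reads in fluoxetine sample 2 (15.2%, 6.34 to 28.9%), 8 of 70 in vehicle sample 1 (11.4%, 5.07 to 21.3%) and 1 of 32 in vehicle sample 2 (3.12%, 0.0791 to 16.2%). The share in fluoxetine sample 1 was above the intervals of both vehicle samples and its interval overlapped that of fluoxetine sample 2. In the 792 bases common to both models, samples 1 and 2 had 172 and 34.7 normalized reads in fluoxetine and 66.4 and 32.8 in vehicle, so sample 1 remained the higher one there in both groups. These stretches were compared after their counts had been seen.

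**Figure D3:**
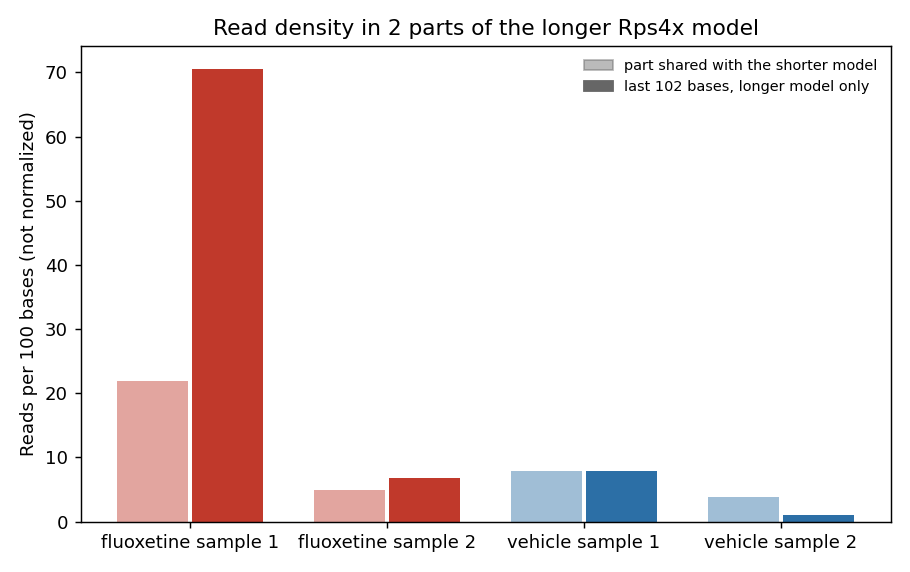
Reads per 100 bases, not normalized, in the 792 bases common to both Rps4x models (pale bars) and in the last 102 bases of the longer model (dark bars), for each sample. In fluoxetine sample 1 the last part had 70.6 reads per 100 bases against 22.0 in the common part, and in vehicle sample 1 both parts had close to the same density, 7.84 and 7.83.

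The starts of 6 of the genes are shown because ribosomal protein genes are known for a pyrimidine-rich start. They are 60 bases each, 40 before and 20 from the annotated start, from RefSeq's GRCr8 assembly, with the longest run of C or T that touches the 10 bases on either side of the start in capitals. The Rps4x locus has no entry in this table.
Rpl22: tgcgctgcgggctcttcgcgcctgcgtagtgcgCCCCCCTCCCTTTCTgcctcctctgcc
Rpl5: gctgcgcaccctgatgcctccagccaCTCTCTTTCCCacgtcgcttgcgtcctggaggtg
Rps27: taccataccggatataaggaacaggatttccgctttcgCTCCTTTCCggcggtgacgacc
Ndufb11: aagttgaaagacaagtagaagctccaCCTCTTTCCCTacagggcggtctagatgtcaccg
Cox7a2: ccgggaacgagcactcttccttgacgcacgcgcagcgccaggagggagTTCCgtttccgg
Cox7b: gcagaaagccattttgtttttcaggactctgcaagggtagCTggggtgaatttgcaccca

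In GRCr8 these lie at chr5:168117921-168117980 (plus strand, Rpl22), chr14:1995206-1995265 (minus, Rpl5), chr2:177964587-177964646 (minus, Rps27), chrX:4126277-4126336 (plus, Ndufb11), chr8:89601130-89601189 (minus, Cox7a2) and chrX:75148996-75149055 (plus, Cox7b). The run was 15 bases in Rpl22, 11 in Rpl5 and 9 in Rps27. It was 11 bases in Ndufb11, 4 in Cox7a2 and 2 in Cox7b. The runs of Rpl5 and Ndufb11 lay before the annotated start, at bases -14 to -4. That of Cox7a2 lay after it, at bases 9 to 12. A run of 8 or more in this window was found in 68.7% of 67 promoters of ribosomal protein genes, in 6 of 60 promoters of oxidative phosphorylation genes and in 13.2% of all 33469 promoters in the table. A link between these runs and the read counts was not tested. These runs are a description of the sequence on the given strand and not of a measured start site.

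The 7 genes had short listed transcripts, from 343 to 894 bases, against a median of 1016 bases over the 540 genes. These lengths are those of the listed models, which need not be whole mRNAs and may carry an identifier of another species, as for Rpl5. In genes at 50 or more normalized reads, the median ratio between the fluoxetine samples differed between length classes. The 38 genes under 600 bases other than the 7 had a median log2 ratio of sample 2 over sample 1 of -0.84, and 44.7% of them were at least 2-fold higher in sample 1. The 35 others from 600 to below 1000 bases had a median of -0.39, and over all genes at this level the medians were -0.24 from 1000 to below 2000 bases, 0.33 from 2000 to below 4000 and -0.30 at 4000 or more, the last from 7 genes. In vehicle the medians of the same classes ran from -0.29 to 0.11, with 0.06 in the other genes under 600 bases, while the 7 genes had -1.13. In fluoxetine 6 of the 7 genes lay below the median of their length class, as 5 did in vehicle. Over all 540 genes, without a floor on reads, the fluoxetine medians were -0.10 under 600 bases and -0.21 from 600 to below 1000. They were 0 from 1000 to below 2000, -0.08 from 2000 to below 4000 and 0 at 4000 or more. The part of length in the values of the 7 genes was not tested.

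**Figure D4:**
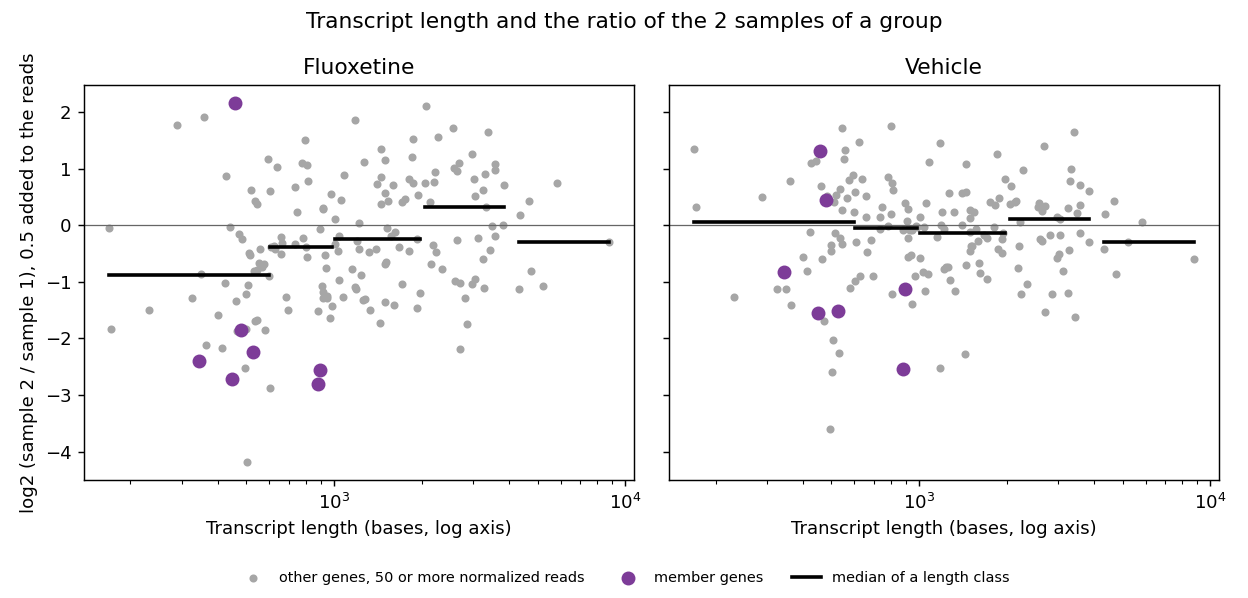
Log2 ratio of sample 2 over sample 1 (0.5 added to the normalized reads) against transcript length in bases (log axis), in fluoxetine and in vehicle. Points are the 7 genes (purple) and the other genes at 50 or more normalized reads (grey), and black bars are medians of 5 length classes over genes at this level. In fluoxetine the bar for transcripts under 600 bases lies at -0.88 and 6 of 7 genes lie below the bar of their class.

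Markers of cell types also differed between the samples of a group. Of 27 oligodendrocyte markers 15 were in the table, of which 13 were higher in sample 2 and 2 higher in sample 1 in both groups, with sums in samples 1 and 2 of 13945 and 26230 normalized reads in fluoxetine and 10712 and 17334 in vehicle. Of 7 markers of CA1 pyramidal neurons 5 were in the table, of which 4 were higher in sample 2 and 1 higher in sample 1 in both groups, and their sum was 5528 in sample 1 against 11515 in sample 2 of fluoxetine and 5179 against 6703 in vehicle. Of 11 astrocyte markers 2 were in the table, both higher in sample 1 of both groups, with a sum of 3519 against 485 in fluoxetine and 1467 against 737 in vehicle. Nearly all of this sum came from 1 of the 2, with a mean of 1541 normalized reads over the 4 samples against 11.5 for the other. Red blood cell markers (3 of 8) summed to 627, 479, 699 and 1840 over the same 4 samples. Microglia (2 of 12), endothelial (1 of 10) and choroid plexus (3 of 10) markers summed to at most 38.2 normalized reads in any sample. No listed marker of oligodendrocytes, CA1 neurons, astrocytes or red blood cells was at 0 in any sample, the listed endothelial marker was at 0 in both fluoxetine samples, and none of 8 markers of dentate granule cells was in the table. The part of these cell types in the values of the 7 genes was not tested.

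Besides the 7 genes, 8 genes of protein synthesis and the respiratory chain were in the table, from lists of 84 ribosomal proteins, 76 mitochondrial ribosomal proteins, 85 genes of oxidative phosphorylation and 64 translation factors. None passed edgeR's adjusted test, like every other transcript. Rps18, a protein of the small ribosomal subunit, had a lower mean in fluoxetine, where samples 1 and 2 had 37.7 and 8.0 normalized reads, against 77.2 and 31.8 in vehicle. Ndufa10, an accessory subunit of complex I, had 53.5 and 30.2 against 174 and 36.0. Both were thus on the other side of the group comparison from the 7 genes and, like 5 of them, higher in sample 1 of each group. As the 7 were picked with values known, this contrast with them is no finding.

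Mrpl47, a protein of the large mitochondrial ribosomal subunit, had 72.3 normalized reads in sample 1 and 29.3 in sample 2 of fluoxetine, and 27.9 and 24.4 in those of vehicle. Of the translation factors, Paip2, which binds poly(A)-binding protein, had 422 and 175 in fluoxetine against 253 and 139 in vehicle, and Eif4g1, the scaffold of the cap-binding complex, had 338 and 161 against 173 and 141. Eif2s2, a subunit of the factor that brings the initiator tRNA, had 151 and 110 against 105 and 59.3. These 4 genes had higher means in fluoxetine and were higher in sample 1 of both groups. Eef2k, the kinase of elongation factor eEF2, had 0.991 and 1.78 in fluoxetine against 10.7 and 12.7 in vehicle, and Eif4e1b, a relative of the cap-binding protein eIF4E, had 0 and 0.889 against 6.43 and 4.24, both at few reads.

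The genes with the pattern over the 4 samples most like the mean of the 7 were LOC100363539, Tbce, Apoa1bp, Usp11 and Lonp2, at root mean square distances of 0.11 to 0.18 on the log2 scale, among 152 other genes with a gene ID and at least 50 normalized reads. The likeness is measured over 4 samples only. For LOC100363539, samples 1 and 2 had 678 and 185 normalized reads in fluoxetine and 243 and 161 in vehicle. Tbce, a cofactor of tubulin folding, had 146 and 46.2 in fluoxetine and 67.5 and 36.0 in vehicle. Among the 7 genes themselves, the distance to their mean was smallest for Rps27 (0.23), Rps4x (0.30) and Ndufb11 (0.30) and largest for Rpl5 (0.76) and Rpl22 (1.60).

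Copies of these genes elsewhere in the genome limit what reads with a single genomic position can count. GRCr8 names 11 pseudogenes for Rps4x, 10 for Rpl5, 5 for Rps27, 3 for Cox7b, 2 for Rpl22, 1 for Cox7a2 and 0 for Ndufb11. The 11 include Rps4x-ps9, the locus counted here. Only pseudogenes named after the gene were counted, so copies under other names are missed, for Ndufb11 too. Reads that match a gene and a copy equally were not kept, so the levels are uncertain and may understate the gene. For Rps4x the counted locus is itself annotated as a copy, so its level is not that of the intact gene alone.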

How the data were processed

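Hippocampal RNA of 4 samples was sequenced by the authors as single reads of 36 bp on a Genome Analyzer IIx and aligned to rn4 with at most 1 mismatch. Reads with 1 position were kept and counted per transcript over its exons (Genomatix), and the deposited counts are not normalized. The sources used here do not say whether counting used the strand. The deposited NE values are a signal, a read density the authors divided by transcript length and library size. The deposited table holds only transcripts with a DESeq p-value under 0.05, not adjusted for multiple comparisons, and a fold change over 1.5. Its columns of group means, fold changes, direction and p-values were not used.

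Groups came from the sample labels, and the columns named treat and ctrl, with their numbers, were read as fluoxetine and vehicle samples. Normalized reads, log2 fold changes and SE were computed from the counts with edgeR 4.0.16 in R 4.3.3 (TMM, quasi-likelihood, 830 transcripts, no filter, no block), and p-values measure only the spread between these pools. Ratios of 2 samples carry exact (Clopper-Pearson) 95% intervals. DESeq2 1.42.0, other scalings, a filter at 10 reads, a replicate block and leaving out each sample were alternatives. The fits were tested on simulated counts. Intervals used scipy 1.17.1, and figures and tallies used matplotlib 3.10.9, pandas 2.3.3 and numpy 2.4.6 under Python 3.11.15. RefSeq's GRCr8 tables gave names for 7 of 7 gene IDs, of which 6 keep their symbol, and promoters for 6.

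The members and gene lists were chosen with earlier results of these data known. Named are the 7 genes, every listed gene of the 4 pathway lists, and the 5 genes nearest in pattern. Marker lists are given by counts and sums.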

Additional observations from a re-analysis of the deposited data

How the results depend on the processing

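Among the log2 fold changes of single genes under the alternatives, 6 changed sign, 1 moved toward 0 and 60 kept their direction, some at a very different size when a sample was left out. The median log2 fold change of the 7 genes was 1.46 at library totals, 1.40 at DESeq2's size factors, 1.41 in DESeq2, 1.37 with the filter and 1.10 over every listed transcript. Library totals raised the median of the 830 transcripts from 0.49 to 0.61. With no 0.5 added, they moved the median log2 ratio of sample 2 over sample 1 of the 7 genes from -2.43 to -2.22 in fluoxetine. In vehicle this ratio moved from -1.15 to -0.97. Leaving out 1 sample at a time, the median log2 fold change of the 7 genes ran from -0.41 to 1.98. Over the same fits Cox7b ran from -0.82 to 2.07, Ndufb11 from -0.49 to 1.98, Rpl22 from -0.88 to 1.71, Rpl5 from -0.42 to 3.73, Rps27 from -0.22 to 2.07 and Rps4x from -0.41 to 2.07. These reversals came without fluoxetine sample 1, except that of Rpl22, which came without fluoxetine sample 2, and Cox7a2 moved to 0.25 without fluoxetine sample 1. The number of transcripts past the adjusted threshold was 0, and from 0 to 1 when a sample was left out, with 1 without vehicle sample 1 (LOC500035, named after its values were seen). A lone sample in a group is assumed there to vary like the other group. With the replicate block the median of the 7 genes was 1.05, and 0 transcripts passed. Deviations of same-numbered samples correlated at r = 0.66 over 291 transcripts at 50 or more normalized reads and at 0.27 over all 830, but the labels give no shared origin for a number, and 2 pairs are too few to call the samples paired. At the authors' depth, the 41 reads of Rpl5 and its 1 read in vehicle sample 2 limit its ratios.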
